A study of Mus musculus with 3 samples.

Results

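Replication-dependent histone genes supply the H1, H2A, H2B, H3 and H4 proteins that package newly copied DNA, and they lie as many small intronless copies in a few clusters. They were taken here as the genes whose mouse symbol, looked up from the NCBI gene ID, carries a Hist1h to Hist4h name or its newer H2ac, H2bc, H3c, H4c or H1f1 to H1f5 name, with an estimated count of at least 10 reads in any library. The reference table held 64 such names, of which 54 were listed in the deposited tables and 26 reached the count minimum, out of 17615 genes listed in all. The 26 genes were 3 of H1, 8 of H2A, 7 of H2B, 4 of H3 and 4 of H4. The nearest genes inside the minimum were H2bc11 and H4c3, with highest counts of 10.2 and 10.7 reads, and the nearest outside were H3c13 and H2ac20, at 9.80 and 9.23. The other 38 names comprised 28 genes under the minimum, which together held 58.3, 84.7 and 112 reads for control, mM-CSF and sM-CSF, and 10 that were not listed.

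The libraries came from macrophages of C57BL/6J mice with an acute myeloid leukemia marked by GFP and BFP. The transplanted leukemia cells carried high mM-CSF, high sM-CSF or neither (control), where M-CSF is the macrophage growth factor made from Csf1 and the prefixes are left as the labels have them. All 3 groups shared the rest: recipients were 6 to 8 weeks old and were given 800000 leukemia cells without irradiation. GR1-negative, CD115-intermediate, F4/80-positive splenic cells were collected by sorting on day 18. The labels also give a survival of 30 to 40 days, which is later than the day of sorting. Each group had 1 library, and the labels do not say whether animals were pooled, so no test between conditions was possible and each difference describes these libraries. Estimated reads totalled 9.09e+06, 8.57e+06 and 8.94e+06 for control, mM-CSF and sM-CSF, an order kept throughout.

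Histone messages of this kind are made mainly in S phase, when DNA is copied. Their mRNAs are not ended by a poly(A) tail, as other mRNAs are. They end just after a short hairpin, the histone stem-loop, which the protein SLBP binds and next to which the U7 small nuclear ribonucleoprotein directs the cut. Some copies can also be read through to a downstream poly(A) site, a form known from cells that have stopped dividing. Selection for poly(A) tails leaves stem-loop messages under-represented in a library. The way RNA was selected is not given in the sources used here.

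The stem-loop is shown because it is the feature that defines this family and was not used to choose the genes. The 16-base motif GGNNCTTNTNANNNCC was searched on the sense strand of GENCODE M21 (GRCm38) transcripts joined to the deposited RefSeq accessions. It was found in 20 of the 26 genes, against 0.729% of all 141767 GENCODE transcripts, which differ in length. The motif is in capitals, with the bases beside it in lower case, 5′ to 3′.
H1f2: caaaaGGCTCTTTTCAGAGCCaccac
H2ac11: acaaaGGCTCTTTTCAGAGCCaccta
H2ac18: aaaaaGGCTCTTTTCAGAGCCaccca
H2ac23: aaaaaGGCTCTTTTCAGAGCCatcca
H2ac24: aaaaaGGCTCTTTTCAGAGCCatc
H2bc8: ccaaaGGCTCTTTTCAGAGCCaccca
H4c9: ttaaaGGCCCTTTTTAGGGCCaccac
H4c17: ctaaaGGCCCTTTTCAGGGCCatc

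One core, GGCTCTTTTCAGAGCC, was shared by 14 of the 20 genes, and 4 different cores occurred among them. The H1, H2A, H2B and H3 genes had a core that starts GGCTC, whereas the 4 H4 genes had a core that starts GGCCC with the matching bases on the other arm. In 10 of the 20 models no more than 60 bases followed the motif, and in the other 10 the model ran further. The 6 genes in which these letters were not found in the GENCODE model were H2ac13, H2bc4, H2bc21, H2bc23, H3c10 and H3c11. A GENCODE model can end before the stem-loop, so these genes need not lack it. Genes with a match had a median level of 1.42, 3.46 and 3.52 FPKM (fragments scaled to gene length and library size, a level per length) for control, mM-CSF and sM-CSF. Genes without a match had medians of 1.04, 3.50 and 3.51 FPKM, close to the former in each library, while the highest level was 708 FPKM with a match and 17.8 FPKM without. The division describes the models searched and need not be a trait of the genes.

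Near-identical sequence limits how far single copies can be told apart. The authors' estimated counts need not be whole, since RSEM can divide a read among genes, and none of the 26 genes had a whole count (within 0.005 reads) in every library, although 75.7% to 76.7% of all listed genes in a library did. H2ac23 and H2ac24 shared 93.5% of the 50-base windows of H2ac23, H2ac18 held every window of H2ac19 (and 89.4% of its own also occurred in GENCODE genes not joined to the 64 names), and H3c10 and H3c11 shared 79.3%. H1f2 shared only 8.54% of its windows with other genes of the family and H2bc21 none (0%). For H2bc8, H2ac11 and H4c17 the shares were 49.7%, 78.9% and 89.8%, so the levels of these genes can depend on the division of reads too. H2bc23 (NCBI gene 665596) had the same deposited count as a gene now named H4bc24, 6.76, 9.88 and 11.6 reads for control, mM-CSF and sM-CSF, and all its windows occurred in GENCODE genes not joined to the 64 names. Sums over copies are therefore given beside single genes. Of the windows of H2ac23 and H2ac24, however, 55.5% and 55.2% also occurred in GENCODE genes not joined to the 64 names. A sum over these copies thus does not remove all division of reads.

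**Figure D1:**
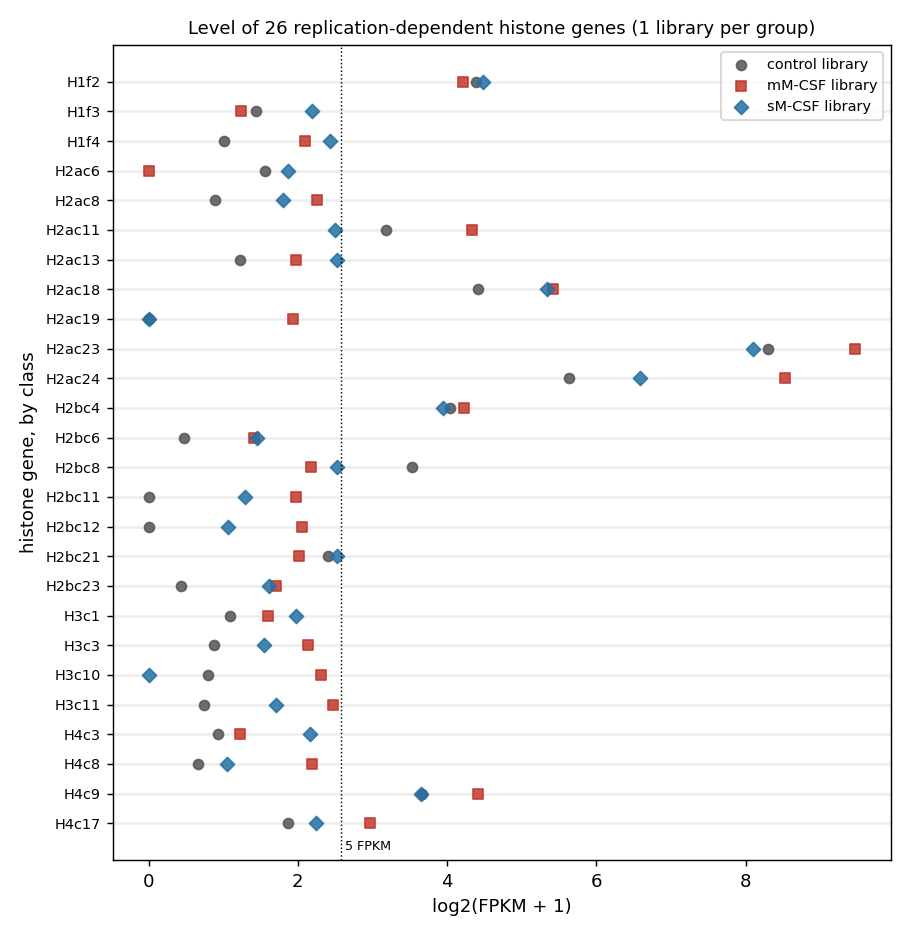
Level of each of the 26 histone genes as log2(FPKM + 1), 1 point per library, with the dotted line at 5 FPKM. The 9 genes past the line are H1f2, H2ac11, H2ac18, H2ac23, H2ac24, H2bc4, H2bc8, H4c9 and H4c17, and the H2ac23 and H2ac24 points of the mM-CSF library lie farthest to the right.

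Histone reads were few and came mostly from 2 H2A copies. The 26 genes held 2301, 5382 and 2430.1 reads for control, mM-CSF and sM-CSF, or 0.0253%, 0.0628% and 0.0272% of all reads. H2ac23 and H2ac24 together made up 73.1%, 84.5% and 67.7% of these reads. The summed share of reads was 2.48-fold higher in the mM-CSF than in the control library (exact conditional 95% interval 2.36 to 2.61, which covers counting error only, as do all intervals here). For sM-CSF over control the ratio was 1.07 (1.01 to 1.14). Without H2ac23 and H2ac24, a choice made after the data were seen, these ratios were 1.43 (1.28 to 1.58) and 1.29 (1.16 to 1.43).

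**Figure D2:**
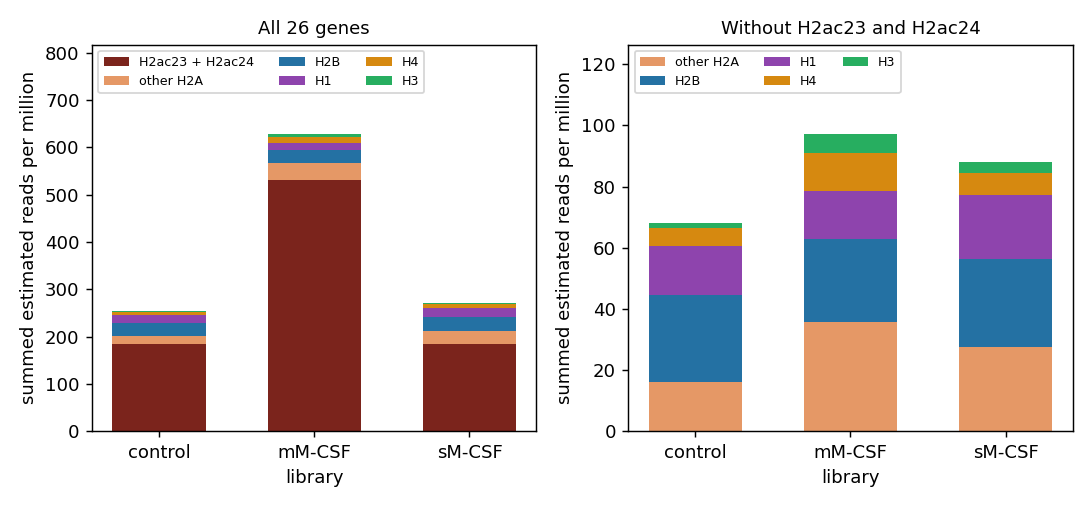
Summed estimated reads as CPM (share of all reads times 1e+06), stacked by histone class, for all 26 genes (left) and without H2ac23 and H2ac24 (right, with its own axis). The left bars stand at 253, 628 and 272 CPM and the right bars at 68.2, 97.2 and 87.8 for control, mM-CSF and sM-CSF.

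The classes did not differ between the libraries alike. H2A was at 201, 566 and 211 CPM for control, mM-CSF and sM-CSF, H2B at 28.5, 27.2 and 28.9, and the linker histone H1 at 16, 15.9 and 20.9. H4 was at 5.88, 12.1 and 7.35 CPM and H3 at 1.56, 6.42 and 3.31. H2A, H3 and H4 were highest in the mM-CSF library, and H1 in the sM-CSF library. Between the mM-CSF and control libraries the ratio of shares was 2.81 for H2A (95% interval 2.67 to 2.97), 2.06 for H4 (1.48 to 2.95) and 4.12 for H3 (2.29 to 8.11), the last from 14.2 and 55.0 reads. Each H3 gene had at most 4.87 reads in the control and met the count minimum only through an M-CSF library. The H3 ratio therefore leans upward, and its interval does not cover this. For H1 and H2B the intervals included equality, at 0.995 (0.781 to 1.27) and 0.952 (0.796 to 1.14).

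Differences between these libraries went with gene length. Histone genes are short, with a median of 494 bases against 2758 for the 13724 genes that had at least 10 reads in any library. Among all genes from 375 up to 800 bases (580 genes, the 375 being the shortest of the histone genes), the median difference of log2(FPKM + 1) between the mM-CSF and control libraries was 1.02, against -0.08 over all genes. The same medians were 0.29 and 0.01 for sM-CSF minus control and 0.74 and -0.11 for mM-CSF minus sM-CSF. Values with this trend removed are given below, obtained by subtracting the running median of all genes over 20 length bins. For summed reads the trend of each gene was averaged with its reads as weight. This sets a log2 ratio of reads against a trend of log2(FPKM + 1), a scale that makes differences of low genes smaller. On the log2 scale the summed share of all 26 genes was 1.31 higher in mM-CSF than control, and 0.34 higher relative to the trend, while for sM-CSF the difference of 0.10 turned to -0.17. Without H2ac23 and H2ac24 the direction turned for mM-CSF, from 0.51 to -0.32 relative to the trend, and the difference for sM-CSF went from 0.37 to 0.12. By class, mM-CSF minus control was 0.48 for H2A, 1.03 for H3, 0.04 for H4, -0.94 for H1 and -0.61 for H2B relative to the trend. H4 thus lay at the level of genes of its length, and H1 and H2B below it. The value for H3, a low class, is raised by the unlike scales and leans upward through the count minimum as well. Singly, on the log2(FPKM + 1) scale, H3c1, H3c3, H3c10 and H3c11 differed by -0.50, 0.25, 0.51 and 0.72 without the trend. The part of length in the histone values was not tested otherwise.

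Markers of other cells also differed between the libraries. Summed levels of the fixed marker lists for control, mM-CSF and sM-CSF were 161, 836 and 164 FPKM for granule progenitor genes (5 of 5 higher in mM-CSF than control by the size rule below), 1402, 4418 and 1459 for plasma cell genes (5 of 7 higher), and 40.6, 269 and 49.8 for neutrophil genes (5 of 8 higher). They were 1583, 3109 and 2921 FPKM for B cells (3 of 10 higher), 311, 556 and 519 for T cells (4 of 9 higher, 1 lower), 4337, 3622 and 3224 for erythroid cells (4 of 9 lower), 128, 59.2 and 120.2 for progenitors and blasts (2 of 8 lower), 76.0, 33.4 and 45.1 for germinal centre B cells (1 of 5 lower) and 194, 298 and 229 for NK cells (0 of 6 either way). Macrophage genes, the labelled cell type, were at 1952, 3868 and 1791 FPKM (3 of 12 higher, 1 lower). Of all genes 6.20% were higher and 10.6% lower in mM-CSF than control. In sM-CSF against control, 3 B cell and 3 T cell genes were higher, 3 erythroid genes were lower, and no gene of the other lists passed in either direction. The shares over all genes were 0.357% higher and 1.01% lower there. No listed marker was at 0 in any library. Their part in the histone values was not tested, and in bulk RNA a change in the number of cells of a type and a change in RNA per cell cannot be told apart.

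Macrophages from leukemia with high mM-CSF were first set against those of control leukemia. The size rule for a higher or lower gene asked for a difference of at least 1 in log2(FPKM + 1) and for 5 FPKM or more in the library with more. By this size rule 4 of the 26 histone genes were higher (15.4%), namely H2ac11, H2ac23, H2ac24 and H4c17, against 6.20% of all 13724 genes. In the length range given above 47.2% of genes were higher. One histone gene, H2bc8, was lower, where 10.6% of all genes and 3.28% in that length range were. With the length trend removed 1 histone gene was higher (H2ac24) and 2 were lower (H1f2 and H2bc8). Over all genes 1.79% were then higher and 5.87% lower. With TPM scaling 1 was higher and 1 lower, where 1.33% of all genes were higher and 20.3% lower. The median difference over the 26 genes was 1.09, close to that of other short genes, and 0.16 with the length trend removed. Of the 26 differences 21 were above 0 and 5 below. The median and this split lean upward, since most of the genes met the count minimum only through an M-CSF library. Over the 8 genes with at least 5 FPKM on average the median was 0.88.

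The linker histone genes H1f2, H1f3 and H1f4 encode proteins that bind DNA where it enters and leaves the nucleosome. H1f2 (NCBI gene 50708), the most abundant of them, was at 19.9, 17.5 and 21.2 FPKM for control, mM-CSF and sM-CSF, from 126, 106 and 133 reads. Its 3 levels lay close together, and its share of reads in the mM-CSF library was 0.889 of that in the control (95% interval 0.682 to 1.16). Relative to genes of its length, however, H1f2 was low in the mM-CSF library, with a difference from control of -0.17 that was -1.11 with the length trend removed. H1f4 (gene 50709) was at 1.01, 3.26 and 4.39 FPKM from 6.97, 21.3 and 29.8 reads, lowest in the control, with shares 3.24-fold (1.3 to 8.86) and 4.35-fold (1.87 to 11.7) higher in the mM-CSF and sM-CSF libraries. Its differences from control of 1.08 and 1.42 were 0.19 and 1.18 without the trend. H1f3 (gene 14957) was at 1.72, 1.36 and 3.56 FPKM, highest in the sM-CSF library, where its share was 2.08-fold that of the control (0.977 to 4.46). H1f1 and H1f5 stayed under the count minimum.

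H2A forms a dimer with H2B on the outside of the nucleosome core. H2ac23 (gene 665433) was the most abundant histone gene in every library, at 314, 708 and 273 FPKM for control, mM-CSF and sM-CSF. H2ac24 (gene 319171) followed at 48.5, 369.8 and 95.3 FPKM. For both copies the mM-CSF library was the highest, while the control and sM-CSF libraries came in opposite order. The share of reads in the mM-CSF library was 2.27-fold that of the control for H2ac23 (95% interval 2.13 to 2.42) and 7.68-fold for H2ac24 (6.58 to 9.0), or differences of 1.17 and 2.91 in log2(FPKM + 1). With the length trend removed they were 0.16 and 1.90.

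The division of reads between these copies differed between the libraries. Of their summed 1681, 4549 and 1644 reads for control, mM-CSF and sM-CSF, 11.1% (exact binomial 95% interval 9.60 to 12.7), 29.6% (28.3 to 31.0) and 21.9% (20 to 24) were assigned to H2ac24. Because the copies share nearly all their windows, these shares depend on the few positions that tell them apart and on how RSEM used them, and the intervals do not cover that step. Summed over both copies, the level was 362, 1078 and 369 FPKM. The summed difference was 1.57 for mM-CSF minus control and 0.56 with the length trend removed. Among the 473 genes of 350 to 800 bases with at least 5 FPKM in the higher library, whose median was 1.09, 40 genes (8.46%) had a larger difference than the sum and 2 (0.423%) a larger one than H2ac24 alone. The pair was singled out after the data were seen, and H2ac24 had the largest of the 26 differences. These ranks therefore follow in part from that choice and are no test.

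The remaining H2A genes were far lower. H2ac11 (gene 319167), which shares 71.8% of its windows with H2ac23, was at 8.05, 19.2 and 4.64 FPKM for control, mM-CSF and sM-CSF, from 32.4, 73.3 and 18.4 reads. Its mM-CSF level was the highest of the 3, and its difference from control was 1.16, or 0.15 with the length trend removed. H2ac18 (gene 15267), on chromosome 3, was at 20.4, 41.7 and 39.4 FPKM from 97.9, 190.2 and 186 reads. Here both M-CSF libraries stood above the control, with differences of 1.00 (rounded, and just short of the size rule) and 0.92. H2ac18 and its copy H2ac19 summed to 97.9, 204 and 186 reads, shares 2.21-fold (1.73 to 2.84) and 1.93-fold (1.5 to 2.49) higher than in the control for mM-CSF and sM-CSF. Without the length trend H2ac18 differed by -0.01 for mM-CSF and by 0.63 for sM-CSF. H2ac6, H2ac8, H2ac13 and H2ac19 stayed under 5 FPKM in every library.

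H2B genes showed no common direction. H2bc4 (gene 68024) was at 15.4, 17.8 and 14.5 FPKM for control, mM-CSF and sM-CSF, from 98.2, 108 and 91.1 reads. H2bc21 (gene 319190), on chromosome 3 and with a long model of 2667 bases, was at 4.27, 3.03 and 4.74 FPKM from 104, 70.0 and 114 reads. The levels of H2bc4 lay close together and H2bc21 was lowest in the mM-CSF library, where its share was 0.715 of that in the control (95% interval 0.519 to 0.976), a difference of -0.39 that was -0.34 with the length trend removed. H2bc8 (gene 319181) was at 10.6, 3.54 and 4.73 FPKM from 41.7, 13.3 and 18.4 reads, highest in the control. Its share was 2.96-fold higher in the control than in the mM-CSF library (1.60 to 6.19) and 2.23-fold higher than in the sM-CSF library (1.29 to 4.24). With the length trend removed its differences from control moved from -1.35 to -2.36 for mM-CSF and from -1.01 to -1.3 for sM-CSF.

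Low H2B genes show how a deposited length can move a level. H2bc6 had 8.88, 8.94 and 13.5 reads for control, mM-CSF and sM-CSF but 0.390, 1.66 and 1.74 FPKM, since its deposited length, which depends on the transcripts the reads were assigned to, was 2483, 651 and 886 bases. H2bc23 likewise had lengths of 2121, 535 and 651 bases. For these genes the FPKM difference between the mM-CSF and control libraries was thus not matched by the reads. H2bc11 and H2bc12 had 0 reads listed in the control, 10.2 and 12.8 reads in the mM-CSF library and 5.19 and 4.64 in the sM-CSF library. A floor of 3 counts stands for 0.330 CPM in the control.

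H3 and H4 form the central tetramer of the nucleosome. No H3 gene reached 5 FPKM, and H3c1, H3c3, H3c10 and H3c11 ranged up to 4.55 FPKM, the mM-CSF level of H3c11. The pair H3c10 and H3c11 had 3.08 and 2.76 reads with control leukemia, 15.7 and 17.8 with mM-CSF, and 0 and 9.29 with sM-CSF. H4c9 (gene 319158) was at 11.6, 20.4 and 11.5 FPKM from 39.4, 65.4 and 38.5 reads, with the control and sM-CSF libraries alike and the mM-CSF library above them (1.76-fold the share of the control, 95% interval 1.17 to 2.70). Its difference from control of 0.76 was -0.25 with the length trend removed. H4c17 (gene 100041230) was at 2.66, 6.81 and 3.75 FPKM from 9.04, 22.0 and 12.6 reads, again highest in the mM-CSF library, and its difference of 1.09 was 0.09 without the trend.

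**Figure D3:**
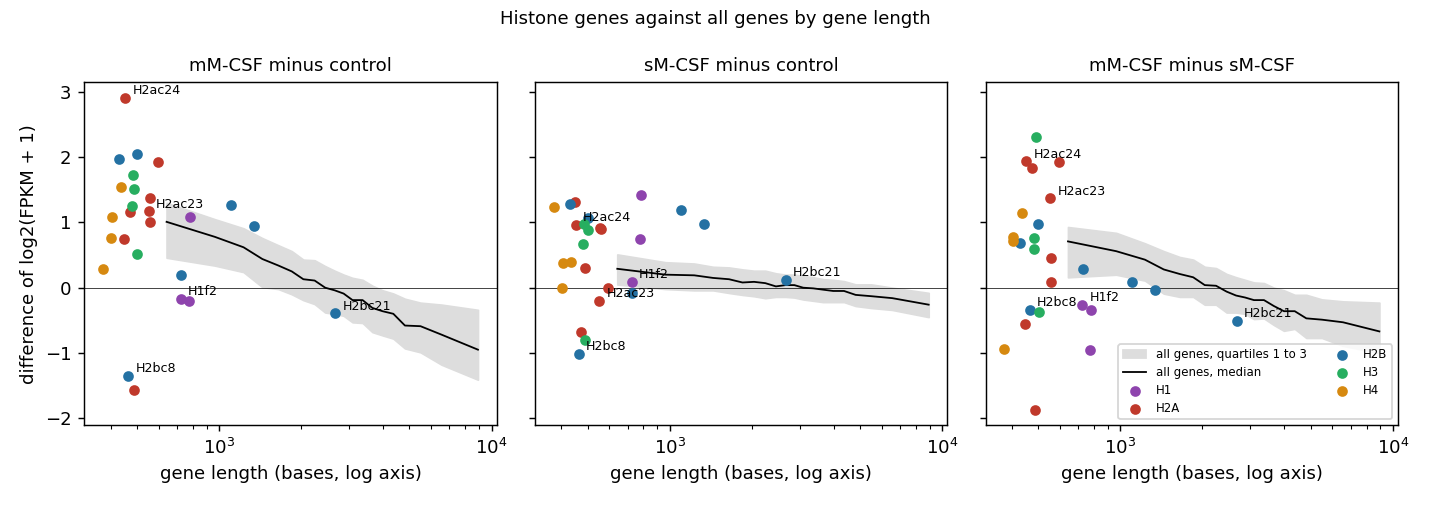
Difference of log2(FPKM + 1) of each histone gene (points, coloured by class) against its mean deposited length on a log axis, for the 3 comparisons. The line and band are the median and quartiles of all genes in 20 length bins. In mM-CSF minus control the line stands at 1.01 in the shortest bin, with many histone genes near it, H2ac24 at 2.91 above and H2bc8 at -1.35 below.

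The comparison of sM-CSF with control leukemia, which used the same control library, gave smaller differences. None of the 26 histone genes was higher by the size rule (0 of 26, where 0.357% of all genes were), and 1 was lower (H2bc8), where 1.01% of all genes were. In the length range from 375 up to 800 bases these shares were 1.38% and 1.21%. The median difference over the 26 genes was 0.71, and 0.44 with the length trend removed. This median also leans upward, since most of the genes met the count minimum only through an M-CSF library. Over the 8 genes with at least 5 FPKM on average it was -0.05. The largest were H1f4 at 1.42, H2ac13 at 1.31 and H2bc11 at 1.29, each under 5 FPKM in both libraries. H2ac24 differed by 0.96 and H2ac23 by -0.20, and their sum by 0.02 (-0.26 with the length trend removed).

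With the M-CSF groups set against each other, 3 of the 26 histone genes were higher in mM-CSF (11.5%, against 2.51% of all genes), namely H2ac11, H2ac23 and H2ac24. None was lower (0 of 26, against 5.91% of all genes). In the same length range 17.9% of genes were higher and 2.07% lower. With TPM scaling 3 histone genes were higher and 0 lower, where 0.758% of all genes were higher and 11.8% lower. H2ac11 differed by 1.84, H2ac23 by 1.37 and H2ac24 by 1.94, and with the length trend removed by 1.13, 0.66 and 1.24, so that H2ac23 no longer passed. As these 3 genes share windows, they are not separate measurements. The summed share of H2ac23 and H2ac24 was 2.89-fold higher in mM-CSF (95% interval 2.73 to 3.06), whereas for the other 24 genes together the ratio was 1.11 (1.00 to 1.22). Relative to the length trend the log2 difference was 0.82 for the former and -0.43 for the latter, which turned direction. H1 was lower in mM-CSF, at 0.759 of its share in sM-CSF (0.604 to 0.952).

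Many H2A and H2B genes sit head to head and share the stretch between their starts. In 3 such neighbouring pairs both genes reached the count minimum. H2ac8 and H2bc8, 179 bases apart by the reference table, had 4.13, 17.4 and 11.8 reads against 41.7, 13.3 and 18.4 for control, mM-CSF and sM-CSF, so that the H2A gene was lowest and the H2B gene highest in the control. H2ac11 and H2bc11 had 32.4, 73.3 and 18.4 reads against 0, 10.2 and 5.19. H2ac23 and H2bc23 had 1495, 3201 and 1284 reads against 6.76, 9.88 and 11.6, the widest gap of the 3 pairs.

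The stretches before H2bc8 and H2ac23 are shown because H2bc8 was the 1 histone gene lower in both comparisons with control and H2ac23 the most abundant. Each is the 150 bases before the gene's start from RefSeq (GRCm38.p6; the deposited tables' own build is not given in the sources used here), 5′ to 3′ on the gene's strand, with capitals for matches on either strand to the TATA box TATAAA, the CCAAT box or the octamer ATTTGCAT. The first lies at chr13:23571250-23571399 and the second at chr13:21810217-21810366, both on the + strand.
H2bc8: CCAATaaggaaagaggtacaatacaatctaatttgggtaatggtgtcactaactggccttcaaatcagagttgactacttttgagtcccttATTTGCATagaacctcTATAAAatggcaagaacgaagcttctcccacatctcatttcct
H2ac23: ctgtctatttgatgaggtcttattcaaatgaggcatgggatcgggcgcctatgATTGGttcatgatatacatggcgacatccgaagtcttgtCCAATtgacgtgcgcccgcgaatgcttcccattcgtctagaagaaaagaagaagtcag

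CCAAT was found in 20 of the 23 histone genes with a promoter in the table, against 27.7% of all 27025 genes, and TATAAA in 9 of 23, against 8.89%. The octamer ATTTGCAT, known from H2B promoters, was found in 5 of 23, against 1.17%, and in 3 of the 5 H2B genes. The stretches of head-to-head neighbours overlap, and those of H2ac8 and H2bc8 hold the same octamer. Some sites are thus counted under both neighbours. The H2bc8 stretch holds all 3 motifs and the H2ac23 stretch only CCAAT. A match describes letters and not a site in use.

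**Figure D4:**
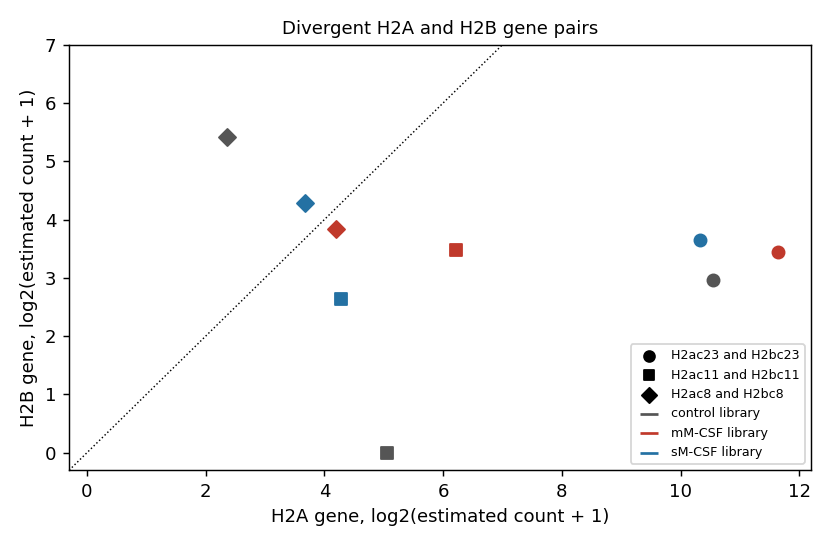
Estimated reads, as log2(count + 1), of the H2B gene against its H2A neighbour in the 3 head-to-head pairs whose genes both reached the count minimum, 1 point per library. The dotted line marks equal counts, and the points of H2ac8 and H2bc8 cross it between the sM-CSF and mM-CSF libraries, at 11.8 and 18.4 against 17.4 and 13.3 reads.

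Genes that serve histone synthesis were read from lists fixed with the members. Of 19 factors of histone pre-mRNA processing and of the histone locus, 0 were higher and 3 lower in mM-CSF than control, where 6.20% and 10.6% of all genes were, and the median difference was -0.13 (-0.03 without the length trend). Slbp, the stem-loop binding protein gene, was at 50, 58.6 and 42.1 FPKM for control, mM-CSF and sM-CSF. Npat, a coactivator of histone gene transcription, was at 5.90, 2.18 and 4.82 FPKM, Casp8ap2 at 7.88, 2.93 and 6.05, and Pou2f1, which binds the octamer, at 6.76, 2.0 and 4.82. These long genes were lowest in the mM-CSF library, and their differences of -1.12, -1.18 and -1.37 were -0.31, -0.46 and -0.42 without the trend, under the size rule. In sM-CSF against control 0 of the 19 passed the size rule in either direction, where 0.357% of all genes were higher and 1.01% lower.

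Histone chaperones, which carry new histones to DNA, gave 0 of 22 higher and 1 lower in mM-CSF than control, where 6.20% and 10.6% of all genes were. The chaperone median was -0.02 (0.07 without the length trend). The lower gene was Atrx, a remodeller that deposits a histone variant, at 28.3, 8.51 and 20.6 FPKM for control, mM-CSF and sM-CSF (-1.62, or -0.67 without the trend). Nasp, an H3 and H4 chaperone gene, was at 28.0, 41.9 and 23.2 FPKM. In sM-CSF against control none of the 22 passed the size rule, where 0.357% of all genes were higher and 1.01% lower. The chaperone median there was -0.15 (-0.09 without the trend).

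Replication-independent histone genes, whose mRNAs are polyadenylated and made outside S phase too, gave 3 of 11 higher and 0 lower in mM-CSF than control, where 6.20% of all genes were higher, and their median was 0.74 (0.23 without the length trend). H2aj was at 28.0, 72.9 and 40.0 FPKM for control, mM-CSF and sM-CSF, a difference of 1.35 that was 1.09 without the trend. H2az2, a copy of the H2A.Z gene, was at 21.4, 50.6 and 28.1 FPKM (1.20, or 0.86 without the trend), and the linker gene H1f10 at 2.19, 8.27 and 1.21 (1.54, or 0.86). Cenpa, the centromeric H3 gene, was at 35.9, 64.6 and 32.8 FPKM. In sM-CSF against control 0 of 11 passed the size rule, where 0.357% of all genes were higher and 1.01% lower, and their median was -0.04.

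Genes of DNA replication mark the phase in which these histones are made. Of 32 such S phase genes 0 were higher and 1 lower in mM-CSF than control, where 6.20% and 10.6% of all genes were. Their median was 0.05 (-0.04 without the length trend). The lower gene was Mcm4, a subunit of the replicative helicase, at 44.0, 20.9 and 32.3 FPKM for control, mM-CSF and sM-CSF (-1.04, or -0.76 without the trend). Rrm2, which makes deoxynucleotides, was at 64.3, 48.1 and 35.9 FPKM. Pola1, a DNA polymerase subunit gene, was at 7.86, 3.58 and 5.70 FPKM, and Rfc4, a clamp loader gene, at 15.8, 22.5 and 11.7. In sM-CSF against control the median was -0.26 (-0.32 without the trend) with 0 of 32 past the size rule. Of all genes 0.357% were higher and 1.01% lower there. The S phase median in mM-CSF against sM-CSF was 0.33 (0.40 without the trend). G2 and M phase genes had medians of -0.13 and -0.51 for mM-CSF and sM-CSF against control (0.02 and -0.55 without the trend). Mki67, a marker of dividing cells, was the 1 lower gene of 20 in each, at 69.2, 29.1 and 33.4 FPKM. Its differences from control of -1.22 and -1.03 were -0.27 and -0.77 without the trend, so neither passed then. In mM-CSF against sM-CSF 3 of the 20 were higher, where 2.51% of all genes were, with Birc5 at 73.9 and 32.4 FPKM, Cdc20 at 48.1 and 20.9 and Ube2c at 127 and 61.4. Their differences of 1.16, 1.16 and 1.03 were 0.73, 0.99 and 0.47 without the trend, and none of the 3 passed then.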

How the data were processed

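The 3 RNA libraries were made for a BGIseq-500 from 1 ug of total RNA each, per the labels' protocols. Bowtie2 2.2.5 and RSEM were used per the submitters' processing notes, which give no roles or further settings. The deposited tables hold 3 values for each NCBI gene ID (length, expected count and FPKM, per the file headers), and FPKM had been scaled by the authors to length and library. A gene absent from a library's table was set to 0. Symbols came from a RefSeq table of GRCm38.p6, which matched 17561 of 17615 IDs.

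Differences were taken on the log2(FPKM + 1) scale, which understates low genes. The running median used 20 length bins, and shared sequence was counted in 50-base windows of GENCODE M21 transcripts, whose ends can differ from the deposited models. Intervals are exact conditional (ratios) or binomial (shares), on counts rounded to whole reads. They do not cover PCR copies or the division of reads among copies. Python 3.11.15, pandas 2.3.3 and scipy 1.17.1 were used, and the steps were tested on simulated data. Named genes were all histone genes at 5 FPKM or more, others where a count called for it, and up to 4 genes of each pathway list. The histone genes, the pathway lists and the marker lists were chosen with earlier results of these data known. Build, annotation, strand and RNA selection are not given in the sources used here. Alternatives on pseudocount, scaling, length, minimum and naming were tried.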

Additional observations from a re-analysis of the deposited data

How the results depend on the processing

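No paired analysis was possible because each group has 1 library. With 1 library per group no library could be left out, and the sum over genes with whole counts was not run because no histone gene had them (0 of 26). In mM-CSF minus control, the 4 higher genes became 1 with TPM scaling, 1 with the length trend removed and 14 at a minimum of 1 FPKM, and the 1 lower gene became 2 with the trend removed, 0 at a count minimum of 50 and 2 at 1 FPKM. Of all genes 1.79% were higher and 5.87% lower with the trend removed, and 7.07% and 12.7% at 1 FPKM. In sM-CSF minus control, the 0 higher genes became 1 with TPM, 6 at 1 FPKM and 2 at 1.5-fold, and the 1 lower gene became 0 at a count minimum of 50 and 2 at 1.5-fold. Of all genes 0.233%, 0.525% and 2.67% were higher under the former 3 settings, and 3.93% were lower at 1.5-fold. The counts of higher histone genes at 1 FPKM against control lean upward through the count minimum. In mM-CSF minus sM-CSF, the 3 higher genes became 2 with the trend removed, 6 at 1 FPKM and 5 at 1.5-fold, and the 0 lower became 1 at 1 FPKM. Of all genes 1.16%, 3.05% and 10.3% were higher under these settings, and 7.43% were lower at 1 FPKM. With TPM scaling the all-gene median shifted by -0.35, -0.12 and -0.24 in this order of comparisons, and in mM-CSF minus control 1.33% of all genes were higher and 20.3% lower. The histone medians of 1.09, 0.71 and 0.37 became 1.28, 0.96 and 0.45 with a pseudocount of 0.1, 0.72, 0.64 and 0.10 with TPM, and 1.16, 0.67 and 0.49 with median-of-ratios scaling. They became 0.16, 0.44 and -0.31 with the length trend removed, 0.88, 0.04 and 0.53 over 8 genes at a count minimum of 50, 1.04, 0.53 and 0.31 over 30 genes with synonyms matched, and 0.88, -0.05 and 0.53 over genes at 5 FPKM or more on average. Chosen after the data were seen, a common length per gene gave 1.04 and 0.40 in the comparisons with control, and summing near-identical copies into 20 groups gave 0.85, 0.56 and 0.07. The log2 ratios of summed shares, 1.31, 0.10 and 1.21, became 1.40 and 1.34 for mM-CSF against control and sM-CSF with median-of-ratios scaling, and 0.51, 0.37 and 0.15 without H2ac23 and H2ac24. The medians of sM-CSF minus control and of mM-CSF minus sM-CSF thus reversed under 1 alternative each, and the cause was not tested. Depth limits the 17 genes under 5 FPKM, of which all but H2bc21 had at most 29.8 reads in any library.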

Other observations

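Histone genes that carry an older Hist name only as a synonym were not counted above. H2aw (NCBI gene 319162), an H2A gene, was at 21.9, 29.7 and 23.2 FPKM for control, mM-CSF and sM-CSF, from 95.4, 123 and 99.7 reads. H2bu2 (gene 78303), an H2B gene, was at 4.58, 7.50 and 5.74 FPKM from 18, 28 and 22.2 reads. H4f16, an H4 gene, had 2, 2 and 3 reads, and H1f6, the testis linker histone gene, had 0, 1 and 1.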
